A study of Mus musculus with 4 samples.

Results

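The genes described here are 46 genes of synaptic vesicles and secretory granules, chosen by name. They were found on the array as gene probes carrying the symbol of a member, which gave 85 probes among 39429 and 46 genes among 29924 gene names. Of these, 44 genes were well above background often enough to be tested, as were 21042 genes of the whole array. The cochlear duct is the epithelial tube in which the organ of Corti, the hearing epithelium, forms. Arrays of 2 colours compared ducts of E14.5 (embryonic day) *Sox2-Tbx2LOF* embryos, genotype Sox2(creERT2);Tbx2(fl/fl), with control ducts of genotype Tbx2(fl/n.d.), whose second *Tbx2* allele the labels leave undetermined and which the methods call cre-negative. All embryos were of the NMRI strain, and the dams of both groups received 4 mg of tamoxifen orally at E12.5. The tamoxifen-inducible cre sits in the *Sox2* locus, so it acts in the SOX2+ prosensory progenitors and in other cells that express *Sox2*, and the mutants also carry the cre allele that the controls lack. According to the methods the pools were independent. Each of the 4 arrays set a pool of mutant ducts against a pool of control ducts of the same sex, female on arrays 1 and 2 and male on arrays 3 and 4. The mutant pool carried Cy5 on arrays 1 and 3 and Cy3 on the other arrays, so that each sex was measured in both dye orientations.

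Neurotransmitter is packed into synaptic vesicles by transporters in the vesicle membrane. Vesicles are held near the release site by active zone proteins and fuse with the plasma membrane when SNARE proteins of both membranes zip together, a step that synaptotagmins couple to calcium. Neuropeptides and hormones are stored in larger secretory granules, whose cores are built from granins. In the cochlea hair cells and the neurons that innervate them use this machinery, and hair cells had not yet differentiated at the stage sampled.

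Of the 44 tested genes, 11 (25%) were lower in the *Sox2-Tbx2LOF* ducts at an adjusted p below 0.05, against 2.92% of all tested genes. *Chgb*, *Chga* and *Scg3* of the granule core, *Snap91* of the endocytic coat, the transporters *Slc18a2* and *Slc17a6*, and *Syt11*, *Cplx1*, *Nrxn3*, *Syn1* and *Sv2b* made up this group, and all 11 were below 0 on 4 of 4 arrays. 2 genes (4.55%), *Syt1* and *Cplx2*, were called higher, against 2.26% of all tested genes, and 1 was higher without array 1 or without array 3. The SNARE genes *Snap25*, *Stx1a*, *Vamp1* and *Vamp2*, *Syp*, *Rab3a* and the active zone genes held 0 of these calls. The median log2 ratio of mutant over control was -0.04 over the 44 genes and 0.00 over all tested genes. On arrays 1 to 4 the median of the 44 was -0.0255, -0.0764, 0.0406 and -0.0875 (SD 0.0585, n = 4), a spread wider than its distance from 0. Without the dye term 7 genes were lower and 0 higher, and with the channels fitted separately and unpaired 6 were lower and 0 higher.

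With a fold change of at least 1.5 as a further condition, *Chgb* and *Snap91* were the 2 genes lower (4.55% of the 44, against 0.309% of all tested genes) and 0 genes were higher, against 0.133% of all. Agilent's processed signals put 5 genes in the former count, as did the authors' series value table, both times adding *Chga*, *Cplx1* and *Slc17a6*, and there were 4 with a normexp offset of 10, which added *Chga* and *Cplx1*. The largest rise of a member, 0.32 on the log2 scale, lies below that fold at any p. The members were listed by name and not by their ratios, but with earlier results of these data known, so the shares are given as a description. As the ducts were measured in bulk, fewer cells of a type and less RNA per cell cannot be told apart in any of these values.

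**Figure D1:**
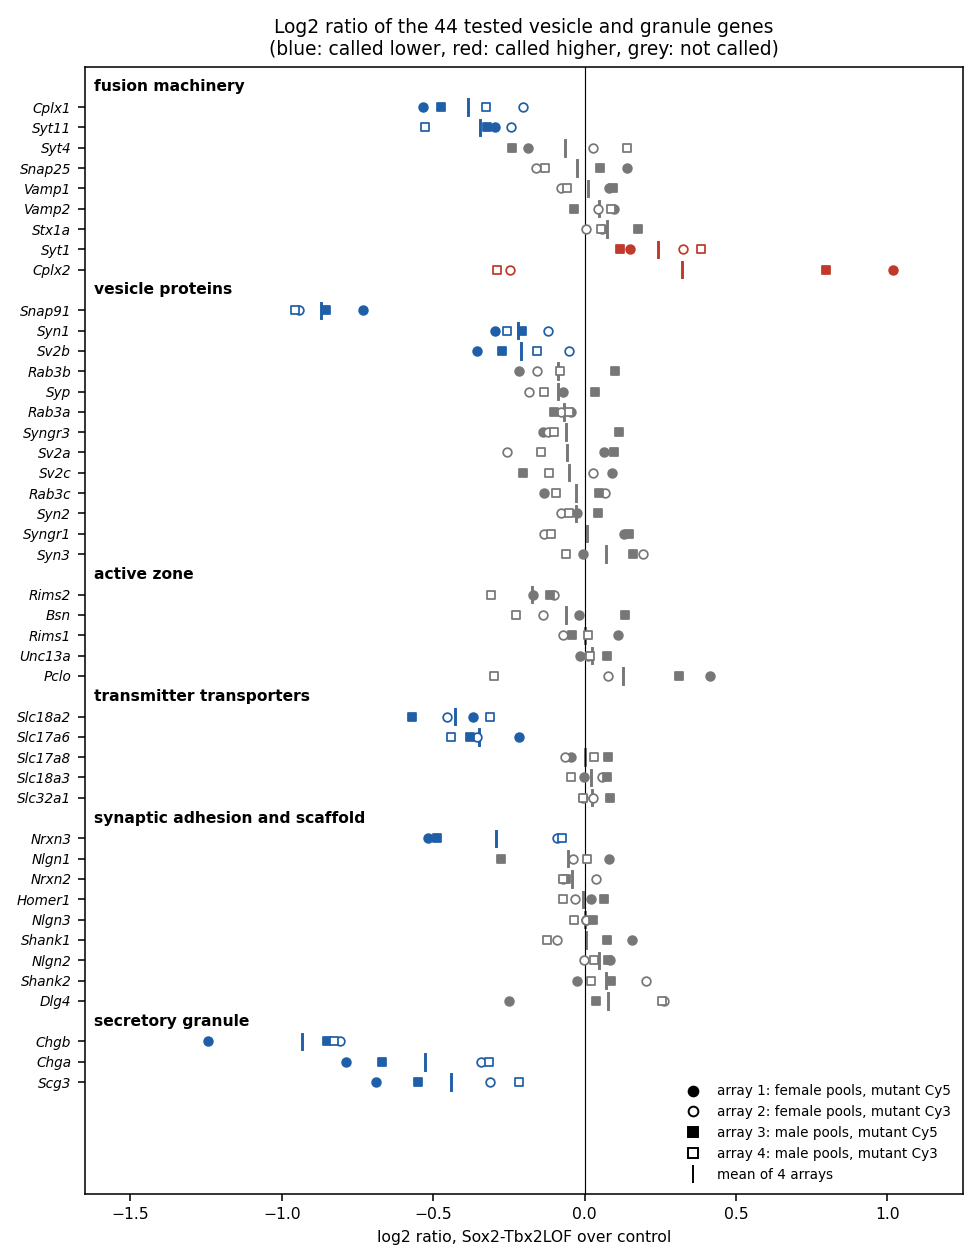
Log2 ratio of mutant over control signal (x axis) of each tested gene on each of the 4 arrays (points; filled where the mutant was labelled with Cy5) with its mean (bar), in groups by role. The 3 granule genes lie left of 0 on 4 of 4 arrays, of the active zone genes Rims2 lies left of 0 on 4 of 4 arrays, and the points of Cplx2 split by dye, with 1.02 and 0.80 against -0.25 and -0.29.

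The signals behind a gene depend on the probe that reports it, and the probe sequences show where a reading needs care. A 60-base probe was marked as shared when its 15-base runs, on either strand, together recurred in probes of at least 3 other genes. A probe with fewer than 20 distinct 4-letter words was marked too. Both criteria were chosen after values were seen, and they marked 7.94% of all probes and 10 of the 85 member probes. They marked the probes that stand for *Cplx2*, *Nlgn3*, *Nrxn2*, *Rab3c*, *Snap25* and *Syn3*, and 0 of the 11 that stand for genes called lower. The starts (30 of 60 bases, 5′ to 3′ as on the array) of the probes of *Chgb* and *Snap91*, of a probe of *Cplx2* and probes of *Rab3c*, whose readings differ between probes, and of *Snap25* are shown here, with runs shared with probes of other genes in capitals.
Chgb: tagcgtgacttgtagcgtattcttcctgca
Snap91: ggtgtggAGTACATTTTTCCAAtcacagaa
Cplx2, probe 4: tccccactttgtatgatgcaaatgctaaga
Rab3c, probe 1 (brightest): atgtTCTACAGAGTGAGTTCTAggatagca
Rab3c, probe 3: ctgttaggtatttagtttgtgtgtgaattc
Snap25: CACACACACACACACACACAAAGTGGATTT
The 3 brighter *Cplx2* probes hold 7, 7 and 8 distinct 4-letter words, where the median probe of the array has 49. The *Snap25* probe opens with a CA repeat and shares runs with probes of 123 other genes.

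The granins are acidic proteins that aggregate in the trans-Golgi network and form the dense core of secretory granules. *Chgb*, which encodes chromogranin B, had the largest fall of all members. Its signal (probe at chr2:132620703-132620762, mm9) was 10.35, 9.76, 10.16 and 9.83 log2 units in the control pools of arrays 1 to 4 and 9.11, 8.95, 9.31 and 9.01 in the mutant pools. The highest mutant pool lay below the lowest control pool. The log2 ratio was -0.93 ± 0.21 (SD, n = 4; standard error of the fit 0.0605), which left 52.4% of the control level (adjusted p = 0.000189).

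*Chga*, encoding chromogranin A, was dimmer, with 7.88, 7.49, 7.90 and 7.46 log2 units in the control pools and 7.09, 7.15, 7.24 and 7.15 in the mutant pools (chr12:103803083-103803142). The groups did not overlap, and the log2 ratio was -0.53 ± 0.24 (SD, n = 4; adjusted p = 0.000246). The ratio was -0.73 on the arrays with the mutant in Cy5 and -0.33 on those with the mutant in Cy3. *Scg3*, whose product links chromogranin A to the granule membrane, had 8.76, 8.49, 8.85 and 8.39 in the control pools and 8.07, 8.18, 8.30 and 8.17 in the mutant pools. Its groups did not overlap either, and it fell by 0.44 on the log2 scale (SD 0.22, n = 4; adjusted p = 0.000803). The ratio of *Scg3* was -0.62 on the arrays with the mutant in Cy5 and -0.26 on those with the mutant in Cy3. *Scg2*, the granin precursor of secretoneurin, was not well above background in 8 of 8 measurements (6.27 to 6.78 log2 units in control and 6.34 to 6.54 in mutant pools) and was not tested. The summed signal of the 4 granule genes was 1501 to 2061 in the control pools and 1018 to 1195 in the mutant pools, and each mutant pool held 0.503 to 0.687 of the sum of its control pool. *Chgb*, the brightest of the 4, weighed most in this sum.

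Among 10 further granule genes, which include processing enzymes and other cargo, 7 were tested. Of these, 1 (14.3%) was lower, against 2.92% of all tested genes, and 0 were higher. It was *Vgf*, a neuropeptide precursor, with a log2 ratio of -0.79 ± 0.28 (SD, n = 4; adjusted p = 0.000632) and groups that did not overlap. The other 6 ran from -0.18 in *Pcsk1n* (adjusted p = 0.0633), an inhibitor of a prohormone convertase, to -0.04 in *Ptprn2*. Carboxypeptidase E, which trims prohormones, read -0.11 (*Cpe*, adjusted p = 0.161). *Pcsk1*, *Ptprn* and *Resp18* were too dim to be tested.

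**Figure D2:**
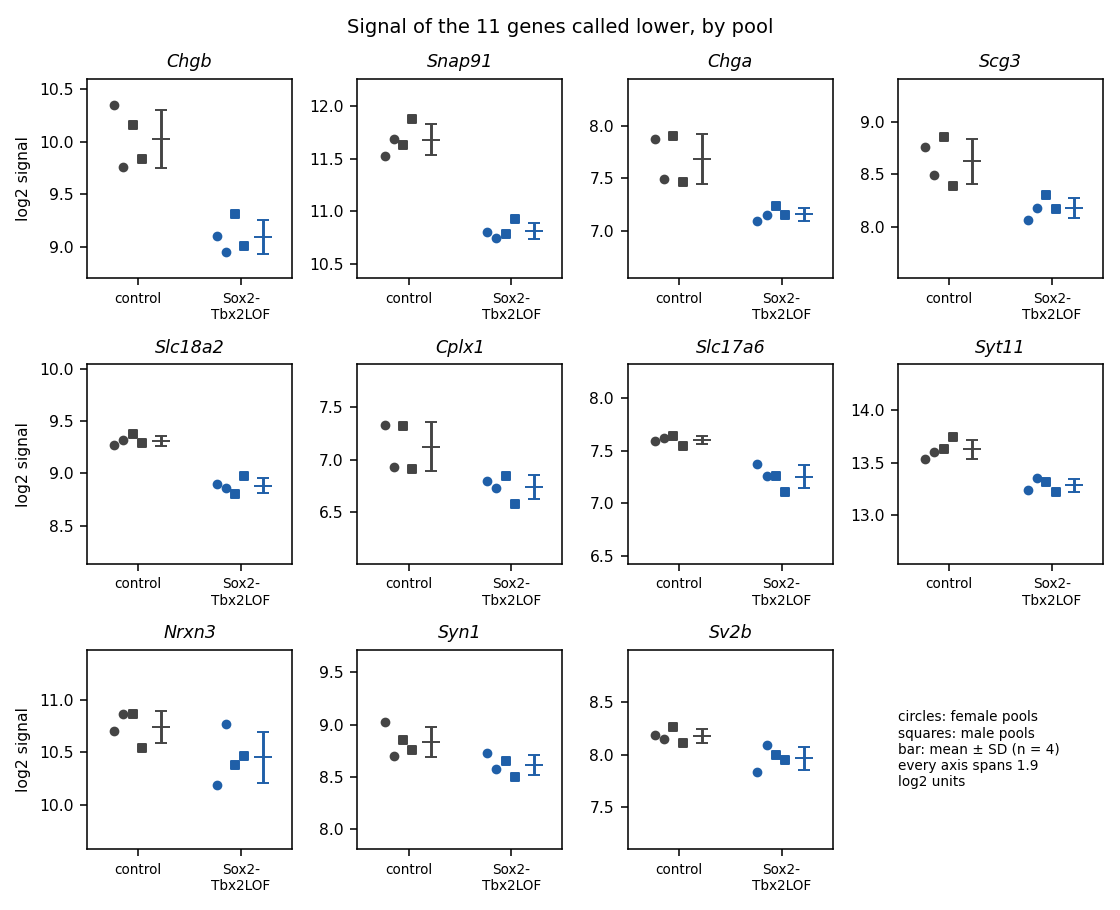
Log2 signal (y axis) of the 11 genes called lower in each control and *Sox2-Tbx2LOF* pool (points; bars are mean ± SD, n = 4). Mutant pools lie below every control pool except in Nrxn3 and Syn1.

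Vesicle proteins form the coat, membrane and cytoskeletal links of the vesicle. *Snap91* encodes AP180, the neuronal clathrin assembly protein that helps to retrieve vesicle membrane after release. Its signal (chr9:86660081-86660140) was 11.53, 11.69, 11.64 and 11.88 log2 units in the control pools and 10.80, 10.74, 10.78 and 10.92 in the mutant pools. The gap between the groups was wider than the range within either. The log2 ratio was -0.87 ± 0.10 (SD, n = 4; standard error 0.0370; adjusted p = 4.3e-05), or 54.7% of control, and was -0.84 in female and -0.91 in male pools. The reading comes from a single probe.

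*Syn1*, encoding the synapsin that tethers vesicles to actin, and *Sv2b*, a glycoprotein of the vesicle membrane, changed less. *Syn1* had 9.02, 8.70, 8.86 and 8.75 in the control pools and 8.73, 8.58, 8.65 and 8.50 in the mutant pools, and the groups overlapped. It fell by 0.22 on the log2 scale (SD 0.08, n = 4; adjusted p = 0.0216). *Sv2b* had 8.11 to 8.27 in control and 7.83 to 8.10 in mutant pools, which touched without overlapping, and fell by 0.21 (SD 0.13; adjusted p = 0.0221). Both calls were lost when array 1, 3 or 4 was left out (*Syn1* adjusted p = 0.118, 0.0879 and 0.0895; *Sv2b* 0.116, 0.0864 and 0.0955). They were also lost with Agilent's processed signals (0.0585 and 0.0529), the authors' series value table (0.0519 and 0.0930), no dye term (0.113 and 0.252) and unpaired channels (0.476 and 0.314). The other 10 vesicle genes did not pass the test and lay between -0.09 (*Rab3b*) and 0.07 (*Syn3*). They include *Syp*, encoding the abundant membrane protein synaptophysin, at -0.09 (SD 0.09; adjusted p = 0.228) and *Rab3a*, a GTPase of the vesicle cycle, whose ratio of -0.07 was small but below 0 on 4 of 4 arrays (adjusted p = 0.310).

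*Rab3c*, a relative of *Rab3a*, was reported at -0.03 (adjusted p = 0.794) by its brightest probe, whose sequence recurs in probes of 4 other genes, and at -0.04 by probe 2, which overlaps it. Probe 3 (chr13:110844454-110844513) read -0.46, -0.22, -0.47 and -0.63 on arrays 1 to 4, a mean of -0.44 ± 0.17 (SD, n = 4). With shared probes left out of the whole array, an alternative added after the values were seen, this probe stood for *Rab3c* and the gene was called lower (adjusted p = 0.00674), which made 12 genes lower of 43 tested. The probes of 1 gene thus gave readings that differ by more than the spread between arrays.

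The fusion machinery joins the SNARE proteins with the synaptotagmins and complexins that control them. Of its 9 genes, 2 were lower, 2 were higher and 5 did not pass the test. *Cplx1*, encoding a complexin that clamps assembled SNAREs, had the largest change, at 7.33, 6.93, 7.32 and 6.91 log2 units in the control pools and 6.80, 6.73, 6.85 and 6.58 in the mutant pools (chr5:108947895-108947954). The groups came close without overlapping, and the log2 ratio was -0.39 ± 0.15 (SD, n = 4; adjusted p = 0.00122). The probe was well above background in 4 control pools and in 1 mutant pool, so the size of this fall depends on how background is treated, and Agilent's processed signals gave -1.22. *Syt11*, a synaptotagmin that does not bind calcium, was bright, with 13.53 to 13.75 in the control pools and 13.22 to 13.36 in the mutant pools. It fell by 0.35 (SD 0.12, n = 4; adjusted p = 0.00819), though not past the threshold without array 1 or array 3 (adjusted p = 0.0815 and 0.0922) or in the authors' series value table (0.0741).

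*Syt1*, the calcium sensor of fast release, was higher in the mutant. Its signal was 9.17, 9.06, 9.25 and 8.87 in the control pools and 9.32, 9.38, 9.37 and 9.26 in the mutant pools (chr10:107935310-107935369), so that the lowest mutant pool lay just above the highest control pool. The log2 ratio was 0.24 ± 0.13 (SD, n = 4; adjusted p = 0.00788), above 0 on 4 of 4 arrays. Without array 1 or array 3 it did not pass the threshold (adjusted p = 0.0655 and 0.0536), nor without the dye term (0.163) or with unpaired channels (0.365).

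*Cplx2*, encoding another complexin, was called higher through a probe of low sequence complexity. The ratios of that probe were 1.02 and 0.80 where the mutant was in Cy5 and -0.25 and -0.29 where it was in Cy3, a mean of 0.32 with an SD of 0.68 (n = 4; adjusted p = 0.00668 in a fit with a dye term). The other low-complexity probes read 0.24 and 0.13, the latter being placed on chromosome 19 rather than on the gene's own chromosome 13 in the array's annotation. Probe 4, of ordinary complexity (chr13:54485200-54485259), read 0.07, -0.09, 0.01 and -0.16, a mean of -0.04 ± 0.10 (SD, n = 4), and with shared probes left out *Cplx2* was not called (adjusted p = 0.564). It was not called without the dye term (0.755), with unpaired channels (0.945) or in the authors' series value table (0.0545) either. The 5 genes that did not pass the test ran from -0.06 in *Syt4* to 0.07 in *Stx1a*. *Snap25* and *Vamp2*, which provide SNAREs of the plasma and the vesicle membrane, read -0.03 and 0.05, the former through its CA-repeat probe alone.

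**Figure D3:**
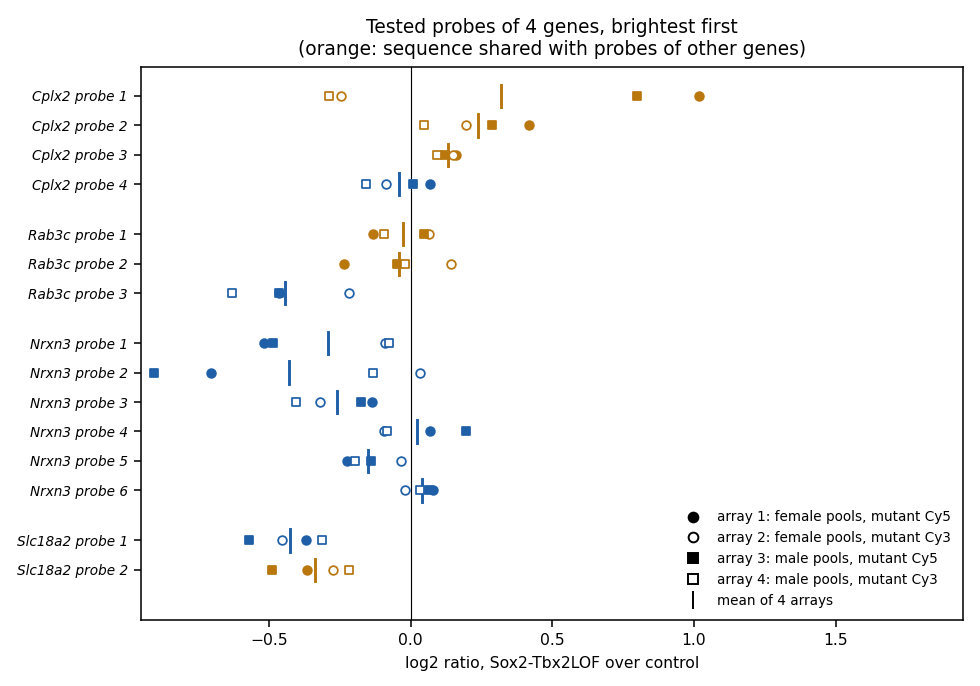
Log2 ratio (x axis) on each array of every tested probe of 4 genes, brightest probe first (points; bars are means; orange probes share sequence with probes of other genes). Probe 4 of Cplx2 lies around 0, and probe 3 of Rab3c lies left of 0 on 4 of 4 arrays.

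Active zone proteins mark the site of release and prime vesicles for fusion. Of its 5 genes 0 passed limma's test in either direction (1 at an unadjusted p below 0.05). *Rims2*, a scaffold that ties vesicles to calcium channels, had the largest change, at 7.97 to 8.13 log2 units in the control pools and 7.69 to 7.96 in the mutant pools. Its groups did not overlap, but the log2 ratio of -0.17 ± 0.10 (SD, n = 4) did not pass the test (adjusted p = 0.0648). *Pclo*, a giant scaffold of the same site, read 0.13 with an SD of 0.32 (adjusted p = 0.293), and *Bsn*, *Rims1* and *Unc13a* read -0.06, 0.00 and 0.02.

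Transmitter transporters load vesicles and so define which transmitter a cell releases. *Slc18a2*, the transporter for monoamines, was 9.27, 9.32, 9.37 and 9.29 log2 units in the control pools and 8.90, 8.86, 8.80 and 8.98 in the mutant pools (chr19:59370106-59370165). The groups lay well apart, and the log2 ratio was -0.43 ± 0.11 (SD, n = 4; adjusted p = 0.00191). Its other probe, which overlaps it by a few bases and shares runs with probes of 4 other genes, read -0.34 ± 0.12. *Slc17a6*, encoding the vesicular glutamate transporter VGLUT2, had 7.60, 7.62, 7.64 and 7.55 in the control pools and 7.38, 7.26, 7.26 and 7.11 in the mutant pools. Its groups did not overlap, and it fell by 0.35 (SD 0.09, n = 4; adjusted p = 0.00313).

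The other transporters did not pass the test. *Slc17a8*, encoding VGLUT3, the glutamate transporter of inner hair cells, was at 7.17 to 7.35 in control and 7.22 to 7.30 in mutant pools (log2 ratio 0.00, standard error 0.0387; adjusted p = 0.999). *Slc32a1*, the transporter for GABA and glycine, and *Slc18a3*, that for acetylcholine, read 0.03 and 0.02. *Slc17a7*, encoding VGLUT1, was not well above background in 8 of 8 measurements and was not tested. The summed signal of the 6 transporter genes was 1339 to 1376 in the control pools and 1136 to 1179 in the mutant pools.

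Neurexins and neuroligins span the synaptic cleft, and the SHANK, HOMER and PSD-95 proteins build the scaffold beneath the receptors. Of 9 such genes *Nrxn3* was lower and 8 did not pass the test, with ratios from -0.06 (*Nlgn1*) to 0.08 (*Dlg4*). *Nrxn3* had 10.70, 10.86, 10.86 and 10.54 log2 units in the control pools and 10.18, 10.77, 10.38 and 10.46 in the mutant pools (chr12:90089234-90089293), and the groups overlapped. Its log2 ratio was -0.29 ± 0.24 (SD, n = 4; adjusted p = 0.00279), with -0.50 on the arrays with the mutant in Cy5 and -0.08 on the others. The gene had 6 tested probes along its length. They read -0.29, -0.43, -0.26, 0.02, -0.15 and 0.04 from the brightest to the dimmest, and 3 of these (probes 1, 3 and 5) lay below 0 on 4 of 4 arrays.

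Of the 44 tested genes, 11 were lower with pools that did not overlap between the groups, whereas 2.54% of all tested genes met this description. These 11 hold 9 of the genes called lower, without *Nrxn3* and *Syn1*, together with *Rab3a* and *Rims2*. The ratio differed between female and male pools in 0 of 44 genes at an adjusted p below 0.05 in limma's interaction test (0 of 21042 genes overall), and in 2 of the 44 and 558 of all genes at an unadjusted p below 0.05. On the single arrays 28, 29, 19 and 33 of the 44 genes lay below 0, where the median ratio of all genes was 0.00 each time.

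From 36 further genes of vesicle release, fixed as a list by role, 32 were tested. Of these, 3 (9.38%) were lower, against 2.92% of all tested genes, and 0 were higher. They were *Cadps*, a priming factor of dense-core granules (-0.48 ± 0.30, SD, n = 4; adjusted p = 0.00174), *Synpr*, encoding the vesicle protein synaptoporin (-0.34 ± 0.15; adjusted p = 0.00611), and *Syt13* (-0.26 ± 0.05; adjusted p = 0.00668). *Cadps* acts on the same granules as the granins, and its control and mutant pools did not overlap. The ratio of *Cadps* was -0.72 on the arrays with the mutant in Cy5 and -0.24 on those with the mutant in Cy3. *Otof*, encoding the calcium sensor otoferlin of hair cell synapses, read 0.02 and did not pass the test.

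Markers of neurons were called lower more often than the members. Of 12 neuron markers 11 were tested, 8 (72.7%) were lower and 1 (*Isl1*, 0.20) was higher, with a median of -0.39. Of the 44 members 25% were lower, with a median of -0.04, and of all tested genes 2.92%. The pan-neuronal *Elavl3* read -1.08, the sensory neuron factor *Pou4f1* -0.75, the neurofilament genes *Nefm* and *Nefl* -0.72 and -0.48, and *Tubb3* -0.39, whereas *Dcx* (0.01) and *Prph* (-0.10) did not pass the test. *Neurod1* was well above background in 2 control pools and 0 mutant pools. The summed signal of the neuron list overlapped between the groups (40336 to 48563 in control, 42221 to 45732 in mutant pools), but the bright probe of *Isl1* made up 58.4% to 71.8% of it. Without *Isl1*, a sum added after the values were seen, it was 15873 to 20065 in control and 12639 to 15211 in mutant pools, without overlap. The spiral ganglion, which holds the auditory neurons, was removed at dissection according to the methods, and the part of neuronal RNA in the changes of the vesicle and granule genes was not tested.

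Among the other lists, 2 of 6 markers of Schwann cell precursors (33.3%) were lower (*Foxd3*, -1.18, and *Cdh19*, -0.63) and 1 was higher. Over all tested genes 2.92% were lower and 2.26% were higher. *Sox10*, from the same list, read 0.01. Of 6 hair cell markers 0 were lower and *Myo7a* was higher (0.17), with *Atoh1* and *Pou4f3* at 0.05 and 0.04. Of the otic epithelial markers *Jag1* was lower (-0.19), of the mesenchymal ones *Col1a1* was higher (0.27), and 0 of the melanocyte and blood markers were called. *Tbx2* itself read -0.12 (adjusted p = 0.124) in whole ducts and *Sox2* 0.01. Whether the *Tbx2* probe lies in the deleted part of the gene was not determined, so the *Tbx2* reading does not check the genotype. The cre sits in the *Sox2* locus, and whether the *Sox2* probe also reads RNA of that allele was not determined either.

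**Figure D4:**
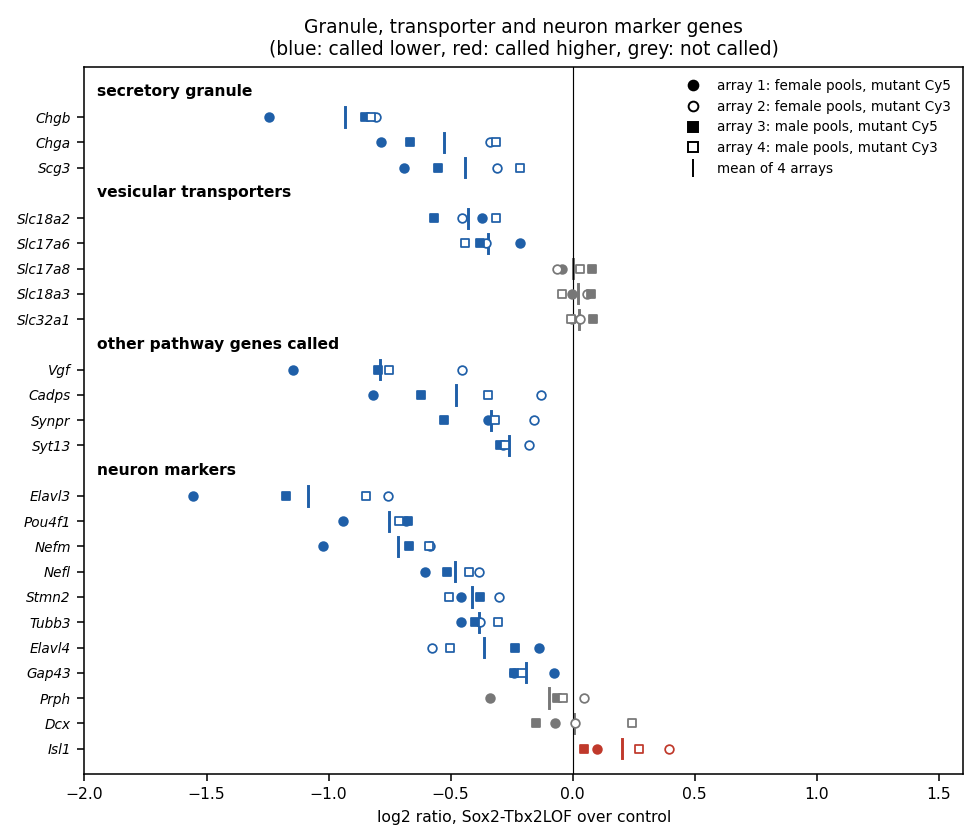
Log2 ratio (x axis) on each array of granule, transporter and neuron marker genes and of the 4 further release and granule genes that were called (points; bars are means). Elavl3, at -1.08, lies left of Chgb, at -0.93, and Slc17a8 lies at 0.

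Promoters were searched because 11 genes were lower together, and 36 of the 46 genes, with all 11 called lower, had an entry in the RefSeq table (GRCm38.p6, 250 bases before to 50 after each start). The letters searched on both strands were GGTGTGA, the core of the sequence bound by T-box proteins, TTCAGCACC, a stretch of the RE1 element that silences neuronal genes outside neurons, and TGACGTCA, the cAMP response element, which was added after the values were seen and reads the same on both strands. GGTGTGA was found in 1 of the 36 genes, against 4.6% of all genes in the table (3.98% of promoters). TTCAGCACC was found in 4 of 36 (*Nlgn1*, *Scg2*, *Syn1* and *Unc13a*), against 0.433% of all genes (0.371% of promoters), and TGACGTCA in 4 of 36 (*Chgb*, *Scg2*, *Slc18a2* and *Syn1*), against 2.03% (1.79% of promoters). Of the 11 genes called lower, GGTGTGA was found in 1, TTCAGCACC in 1 and TGACGTCA in 3. The matches lying before the start are shown for genes called lower and for *Scg2*, on the strand of the gene with the match in capitals.
Sv2b, GGTGTGA, chr7:75302682-75302740: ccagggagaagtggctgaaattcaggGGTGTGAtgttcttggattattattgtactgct
Syn1, TTCAGCACC, chrX:20921116-20921168: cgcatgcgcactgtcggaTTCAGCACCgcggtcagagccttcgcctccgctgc
Syn1, TGACGTCA, chrX:20921044-20921103: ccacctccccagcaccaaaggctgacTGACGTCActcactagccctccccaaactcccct
Chgb, TGACGTCA, chr2:132781544-132781603: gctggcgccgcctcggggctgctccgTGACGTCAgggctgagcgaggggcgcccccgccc
Scg2, TGACGTCA, chr1:79440061-79440120: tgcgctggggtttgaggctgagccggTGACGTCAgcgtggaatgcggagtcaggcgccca
The cAMP response elements of *Chgb* and *Scg2* end 65 and 61 bases before the start. The matches did not overlap each other. They are matches of letters in the reference sequence, and binding was not measured in the ducts.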

How the data were processed

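Cochlear ducts of 4 mutant and 4 control pools were compared on 4 Agilent arrays that lie on a single slide and share a scan. The authors scanned the arrays and deposited, per the file headers, Agilent Feature Extraction 10.7.3.1 output, with intensity values of each spot (mean signal, median background and Agilent's processed signal, which is background-subtracted and dye-normalized). The deposited log10 ratio (processed Cy5 over Cy3) was not used. The authors' series value table holds a score per probe that reads as a fold change of mutant against control with a sign, with its normalization not given in the sources used here. It served as an alternative (correlation with the ratios computed here 0.882 to 0.913 across probes).

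Background was corrected with normexp (offset 50) and ratios by loess within arrays in limma 3.58.1 (R 4.3.3), leaving out flagged spots (8.29% to 8.56%). Pool levels are loess- and Aquantile-normalized log2 signals, to be compared only within a probe. A probe was tested when well above background in 4 or more of 8 measurements, and the brightest stood for its gene. The fit had genotype and dye terms, with 2 residual and 5.65 prior degrees of freedom, and p values were adjusted (Benjamini-Hochberg) over 21042 genes. As 4 arrays were measured, their number limits the precision. On simulated data the fit was tested with known changes.

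The members and all gene lists were chosen with earlier results of these data known. Named are members that passed the test, the largest change of each role, and further release and granule genes that passed it, up to the 3 largest rises and the 3 largest falls. Probe positions are the files' mm9 coordinates, promoter positions GRCm38.p6. A planned check of which probes lie in coding sequence needed protein sequences and was not run. Some probe sequences are not reported here.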

Additional observations from a re-analysis of the deposited data

Results flagged for a closer look

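In 3 of the 44 tested genes a single array stood far from the other 3, judged by the gap to its nearest neighbour over the whole range (above Dixon's critical value for 4 values), and chance alone flags about 1 in 20 genes. In *Chgb* array 1 read -1.24 against -0.85 to -0.81 on the others, a gap of 0.904 of the range, and the ratio without it was -0.83 (adjusted p = 0.00343). In *Nrxn2* array 2 read 0.04 against -0.07 to -0.06, a gap of 0.905 of the range. In *Syngr3*, a vesicle membrane protein, array 3 read 0.11 against -0.14 to -0.10, a gap of 0.848. *Nrxn2* and *Syngr3* did not pass the test.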

How the results depend on the processing

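Under the alternatives tried, *Chgb*, *Snap91*, *Chga*, *Slc18a2* and *Slc17a6* passed the test in 16 of 16 settings, and *Chgb* and *Snap91* kept the 1.5-fold call in each. The settings are not independent checks. *Chgb*, *Snap91*, *Chga* and *Slc17a6* have 1 probe each, so the settings that choose or average probes left their ratios unchanged. The number of genes called lower was 7 (of the 11, 7 kept) without the dye term and 6 (6 kept) with separate channels and no replicate block, where 0 and 0 were called higher. The array as replicate block, which keeps the pairing of pools by hybridisation, gave the same 11 and 2. With genotype, dye and array terms it repeats the comparison of the main fit, so this agreement was fixed in advance. The arrays pair the pools by design. Lower with a fold of at least 1.5 were 5 with Agilent's processed signals (adding *Cplx1*, *Slc17a6* and *Chga*), 4 with an offset of 10 and 5 with the authors' series value table, which called 1 gene higher. *Chga* read -0.98, *Slc17a6* -0.66 and *Cplx1* -1.22 in Agilent's processed signals. Leaving out each array in turn gave 8 to 12 genes lower and 1 (without array 1 or array 3) to 3 higher, with 2 lower by 1.5-fold each time and medians from -0.04 to -0.02. Without shared probes, an alternative added after the data were seen, 1 gene was higher and *Cplx2* turned to -0.042 (adjusted p = 0.564). Over all genes the calls lower ranged from 124 (no replicate block) to 694 (median centring), against 615. *Scg3* and *Nrxn3* missed the threshold without the dye term and without the block, and *Cplx1* without the block. *Syn1* and *Sv2b* missed it in 7 of 16 settings, *Syt1* and *Cplx2* in 4 each and *Syt11* in 3. Of the 11 genes lower, 9 passed with Agilent's processed signals and 8 in the authors' series value table. Of the single-gene results over all settings 668 stayed on their side of the threshold, 29 lost and 3 gained it, and 1 turned. The causes were not tested.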
